A study of Mus musculus with 8 samples.

Results

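Translation factors are the proteins that help the ribosome find the start codon and then move along the mRNA. Their genes were examined in natural killer (NK) cells sorted from mouse spleen, a lymphocyte that kills infected and transformed cells. The set held every protein-coding gene whose symbol begins with Eif and a digit from 1 to 6, or with Eef1 or Eef2. Kinases of eIF2 (Eif2ak), eIF4E-binding proteins (Eif4ebp) and *Eif2s3y* were left out. This gave 60 genes of the 54838 gene identifiers in the count tables, 21998 of which are protein-coding, and 56 of the 60 had enough reads to be tested.

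The hNK group held 4 libraries of NK cells from healthy wild-type FVB/n mice. The teNK group held 4 libraries from MMTV-PyMT mice, called tumour-bearing in the series, in which the promoter of mouse mammary tumour virus drives the polyoma middle T oncogene in mammary tissue. Cells of both groups were sorted as CD45+/CD49b+/CD3- and kept for 12 to 16 h in medium with cytokines before poly(A) RNA was sequenced, so both groups share that culture. The sources used here do not name the cytokines, the strain background or age of the MMTV-PyMT mice, or how many animals went into a library. No label states that replicates are separate animals. The p-values therefore cover the spread from library to library, which may be technical.

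In initiation, eIF2 brings the initiator tRNA to the small ribosomal subunit, and eIF2B recharges eIF2 with GTP after each round. The large complex eIF3 holds the subunit together with eIF1, eIF1A and eIF5, while eIF4F (the cap-binding protein eIF4E, the scaffold eIF4G and the helicase eIF4A) recruits the mRNA. In elongation, eEF1A delivers each aminoacyl-tRNA, eEF1B recharges eEF1A, eEF2 moves the ribosome forward by a codon, and eIF5A relieves stalls. Lymphocytes are known to raise their translation machinery when they are activated by cytokines.

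Depth was 5202131 to 12419324 reads on genes in hNK and 13111043 to 16209895 in teNK, so the hNK values carry more counting error. The descriptions of the teNK libraries mention repeated sequencing runs of a library and those of hNK lack such a remark, so group and sequencing layout cannot be told apart. All 10 NK markers checked were present in both groups, with a summed level of 5022 to 5753 CPM (reads per TMM-scaled library size) in hNK and 9034 to 9744 in teNK. Of these, 9 were called higher in teNK, while *Eomes* was called lower, at 786 CPM in hNK and 639 in teNK. The summed level of 8 platelet markers was 17.6 to 41.7 CPM in hNK and 169 to 289.5 in teNK. That of 8 myeloid markers was 20.4 to 36.4 and 149.96 to 174 CPM, but most of it was *Itgam*, which mature NK cells also express. Without *Itgam* the sum was 0.165 to 0.915 CPM in hNK and 6.98 to 15.7 in teNK, with *Ly6g* at 0 in both groups and *S100a8* and *S100a9* at 0 in hNK. Of 8 B cell markers, *Ighm* was at 95.8 CPM in hNK and 96.5 in teNK and was not called, while the other 7 were all called higher and summed to 0.715 to 5.11 CPM in hNK and 38.0 to 59.1 in teNK. The sum of 8 T cell markers was 23.4 to 46.1 and 29.2 to 39.4 CPM, with *Cd5* and *Cd8a* at 0 in hNK, and that of 6 erythroid markers 0 to 0.542 and 2.49 to 9.02 CPM. The platelet marker *Gp1bb* and the erythroid marker *Hbb-bs* were at 0 in hNK, and *Hba-a2* in both groups. The part of these other cells in the differences below was not tested, and in bulk RNA fewer cells of a type and less RNA per cell cannot be told apart.

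Most translation factor genes were lower in teNK, with every tested gene of eEF1 and eEF2 among them, while a few initiation factor genes were higher. Of the 56 tested, 30 fell, 5 rose and 21 were not called (edgeR quasi-likelihood test, Benjamini-Hochberg adjusted p under 0.05 over 13903 genes). The background is high in this comparison: 25.6% of all tested genes were called lower and 26.4% higher, 51.9% in all. Among the translation factors, 53.6% were called lower and 8.93% higher. Their median log2 fold change was -0.21, against -0.02 over all tested genes, and 42 of the 56 values were negative.

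The changes were small. Only 7 translation factors were both called and at least 1.5-fold different, and all 7 were lower in teNK (*Eif2s2*, *Eef1g*, *Eif1ad*, *Eif5a*, *Eif3g*, *Eif2b3* and *Eif3c*). By that rule 12.5% of all tested genes were lower and 14.3% higher. The 7 lower of 56 translation factors were thus no more than the background share, and only higher genes were lacking. All teNK libraries lay below all hNK libraries for 27 translation factors and above them for 7, and 22 overlapped. Over all tested genes such separation was seen in 22.4% on the lower side and 24.1% on the higher side. Cytosolic ribosomal protein genes, the nearest functional neighbours, were lower for 71 of 77 with a median log2 fold change of -0.54.

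**Figure D1:**
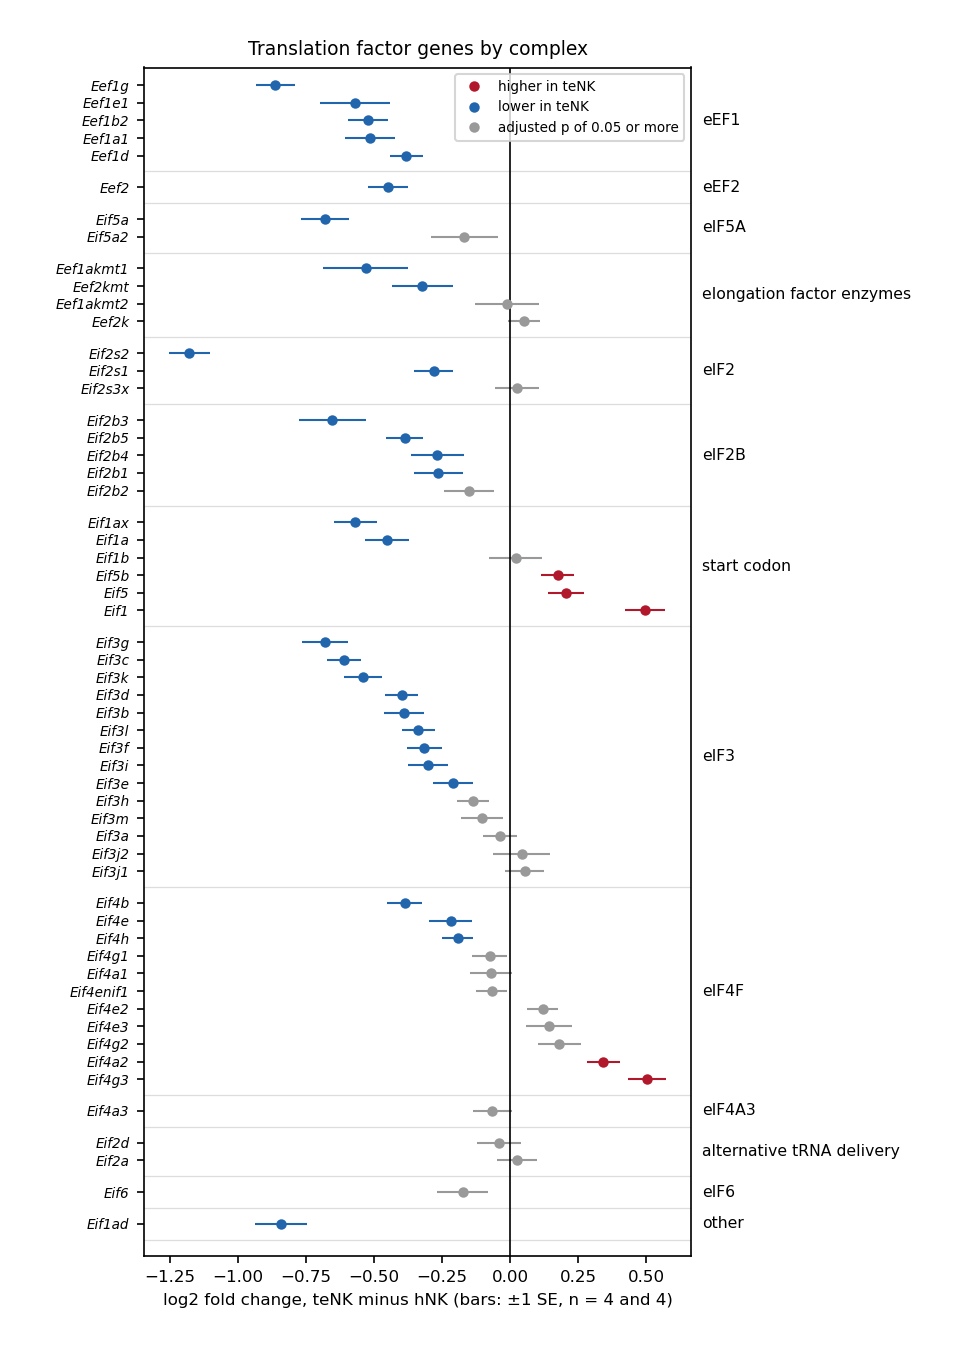
Log2 fold change of the 56 tested translation factor genes, teNK minus hNK, by complex. Points are edgeR estimates and bars 1 standard error (4 libraries in each group); blue genes were called lower, red higher and grey were not called. The eEF1 and eEF2 genes lie left of 0, *Eif2s2* is the lowest at -1.18, and the 5 red genes belong to the start codon and eIF4F groups.

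Measured as a share of all reads on genes, the 60 genes took 1.79% to 2.01% in the hNK libraries and 1.34% to 1.46% in the teNK libraries. The share of eEF1 and eEF2 genes was 0.981% to 1.12% in hNK and 0.617% to 0.706% in teNK. The share of the initiation factor genes was 0.768% to 0.856% in hNK and 0.701% to 0.731% in teNK. None of these 3 ranges overlapped between the groups, and the gap was wider for elongation than for initiation. These shares are raw and lack the TMM scaling used for CPM. The TMM factors were 1.0159 to 1.0663 in hNK and 0.9472 to 0.9735 in teNK. With that scaling the initiation ranges would overlap, so their separation rests on the scaling. Most of the elongation share was *Eef1a1* alone, at 0.666% to 0.786% in hNK and 0.427% to 0.492% in teNK. Within each group 1 library stood low: hNK replicate 1 had the lowest hNK level for 35 of the 56 genes and teNK replicate 2 the lowest teNK level for 37.

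Levels differed widely between genes. Per kilobase of exon, *Eef1a1* was the highest of the 60 in both groups, at 2848 CPM per kb in hNK and 1993 in teNK, followed by *Eef2* at 674 and 494. In hNK the next were *Eif3c* (160.2), *Eif3h* (144), *Eif4g2* (130.4), *Eef1g* (127), *Eef1b2* (125) and *Eif1* (120.5 CPM per kb). In teNK the gene in the third place was *Eif1* at 170.0 CPM per kb, followed by *Eif4g2* at 148, *Eif3h* at 131, *Eif3c* at 105 and *Eif4a2* at 89.6. The lowest tested gene was *Eif2b3*, at 2.31 CPM per kb in hNK and 1.45 in teNK. *Eef1a2*, the eEF1A gene of muscle and neurons, and *Eif4e1b*, the cap-binding gene of oocytes, had 0 reads in every library, where 3 reads correspond to 0.190 to 0.542 CPM. The methyltransferase genes *Eef1akmt3* (2 reads in hNK and 4 in teNK) and *Eef1akmt4* (36 and 24 reads) were too low to test.

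Elongation factors came first by level. *Eef1a1* (ENSMUSG00000037742, chromosome 9, 78478449 to 78489151, minus strand, GRCm38) encodes the GTPase that brings aminoacyl-tRNA to the ribosome. It was at 6313, 7384, 7319 and 7384 CPM in hNK replicates 1 to 4 and at 5095, 4398, 5178 and 5202 CPM in teNK replicates 1 to 4. The lowest hNK library stood above the highest teNK library. The mean fell from 7099.8 ± 526 to 4968 ± 383 CPM (SD, n = 4 in each), a log2 change of -0.51 ± 0.09 (SE, edgeR adjusted p = 0.000175). *Eef2* (ENSMUSG00000034994, chromosome 10, 81176631 to 81182498), the translocase, was at 2243, 2274, 2184 and 2267 CPM in hNK and at 1632, 1484, 1714 and 1734 CPM in teNK. The hNK values lay within a narrow band and all teNK values well under it, a log2 change of -0.45 ± 0.07 (adjusted p = 7.63e-05).

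The eEF1B genes, whose products return eEF1A to its GTP form, fell too, the gamma subunit most. *Eef1g* (ENSMUSG00000071644, chromosome 19, 8967041 to 8978479) was at 306, 316, 330.2 and 373 CPM in hNK and at 184, 164, 189.6 and 190.8 CPM in teNK. Every hNK library was above every teNK library, and the log2 fold change was -0.86 ± 0.07 (adjusted p = 5.20e-08), or 1.82-fold lower. *Eef1b2*, the exchange subunit eEF1B-alpha, fell from 317 ± 30.3 to 220.4 ± 14.9 CPM, a log2 change of -0.52. *Eef1d*, the delta subunit, fell from 130.1 ± 5.92 to 99.7 ± 4.45 CPM, a log2 change of -0.38. *Eef1e1*, named for this complex but known as a scaffold part of the multi-synthetase complex, fell from 21.8 ± 4.44 to 14.5 ± 1.09 CPM, a log2 change of -0.57 ± 0.13 (adjusted p = 0.00142). The groups did not overlap for any of these 5 eEF1 genes.

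eIF5A, the factor that carries hypusine and helps the ribosome past difficult stretches, is made from a pair of genes. *Eif5a* (ENSMUSG00000078812, chromosome 11, 69916714 to 69921958) was at 190.5, 215, 213 and 249 CPM in hNK and at 155, 118, 133 and 134 CPM in teNK. The groups were separate, with a log2 fold change of -0.68 ± 0.09 (adjusted p = 6.80e-06). Its paralog *Eif5a2* was at 24.3 ± 4.88 CPM in hNK and 21.6 ± 2.17 in teNK and was not called (log2 fold change -0.17 ± 0.12, adjusted p = 0.269).

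Of the enzymes that act on elongation factors, the lysine methyltransferase genes *Eef1akmt1* and *Eef2kmt* fell. *Eef1akmt1* fell from 9.24 ± 2.17 to 6.25 ± 0.138 CPM (log2 fold change -0.53 ± 0.16, adjusted p = 0.00919). *Eef2kmt* fell from 14.7 ± 0.834 to 11.7 ± 1.23 CPM (log2 fold change -0.32 ± 0.11, adjusted p = 0.0231), and this call was lost without hNK replicate 4 or teNK replicate 1, 2 or 3 (adjusted p up to 0.0653). *Eef2k*, the kinase that inhibits eEF2, was at 74.7 ± 1.99 CPM in hNK and 77.5 ± 2.34 in teNK and was not called (adjusted p = 0.487). *Eef1akmt2* was not called either, at 10.3 CPM in hNK and 10.2 in teNK.

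**Figure D2:**
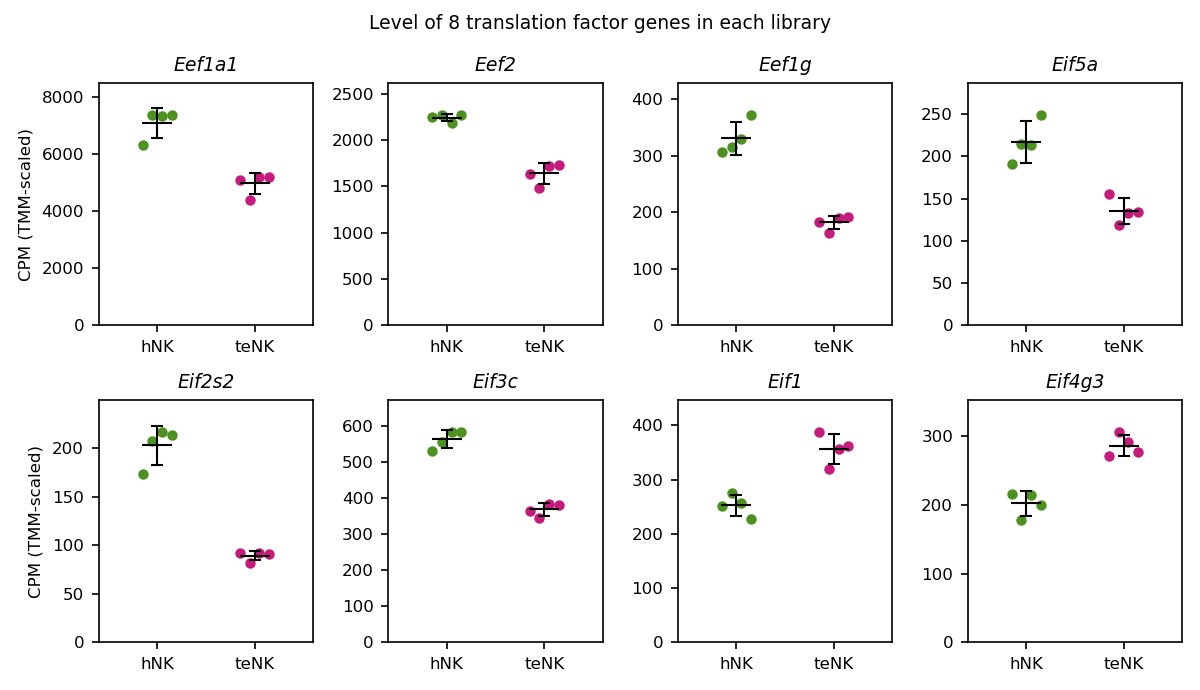
Level of 8 translation factor genes in each library, in CPM with TMM scaling on axes that start at 0. Points are the 4 libraries of a group, the long line is their mean and the bars 1 SD. *Eef1a1*, *Eef2*, *Eef1g*, *Eif5a*, *Eif2s2* and *Eif3c* are lower in every teNK library, and *Eif1* and *Eif4g3* are higher in every teNK library.

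Among initiation factors, the gene of the eIF2 beta subunit changed more than any other translation factor. *Eif2s2* (ENSMUSG00000074656, chromosome 2, 154871410 to 154892935) encodes the subunit that contacts eIF5 and eIF2B. It was at 173, 208, 217 and 214 CPM in hNK and at 92.2, 82.1, 92.2 and 90.6 CPM in teNK. The highest teNK library was far under the lowest hNK library, and the log2 fold change was -1.18 ± 0.08 (adjusted p = 1.37e-09), or 2.26-fold lower. *Eif2s1*, the alpha subunit whose phosphorylation slows initiation, fell from 101 ± 10.03 to 82.9 ± 1.91 CPM, a log2 change of -0.28 ± 0.07 (adjusted p = 0.00317). *Eif2s3x*, the gamma subunit that binds the tRNA, was at 90.2 ± 10.02 CPM in hNK and 91.5 ± 6.53 in teNK and was not called (log2 fold change 0.03 ± 0.08, adjusted p = 0.816).

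The balance of the 3 eIF2 transcripts therefore differed between the groups. Per kilobase of exon, the level of *Eif2s2* divided by that of *Eif2s1* was 1.42, 1.53, 1.402 and 1.51 in hNK and 0.790, 0.727, 0.835 and 0.809 in teNK. By this measure *Eif2s2* stood above *Eif2s1* in all 4 hNK libraries and below it in all 4 teNK libraries. That order depends on the exon lengths used (6755 bases for *Eif2s2* and 4951 for *Eif2s1*). In CPM, without division by length, the teNK libraries held *Eif2s2* at 92.2, 82.1, 92.2 and 90.6 and *Eif2s1* at 85.5, 82.8, 81.0 and 82.2. The shift of the ratio between the groups does not depend on these lengths. Against *Eif2s3x* the ratio was 1.20 to 1.31 in hNK and 0.531 to 0.561 in teNK. These ratios do not depend on the scaling of the libraries, but they were chosen after the values had been seen and carry no test. *Eif2s2* lies on the minus strand within the span of another gene, *a*, on the plus strand, and the strand setting of the read counting was not given in the sources used here.

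eIF2B, the exchange factor of eIF2, is built of 5 subunits, and 4 of the 5 genes fell (80%), beside 25.6% of all tested genes. *Eif2b3* (gamma) was at 12.6, 15.0, 15.2 and 17.5 CPM in hNK and at 10.3, 8.63, 9.56 and 9.32 CPM in teNK. The groups were separate, and the log2 fold change was -0.65 ± 0.12 (adjusted p = 0.000299). *Eif2b5*, the catalytic epsilon subunit, fell from 54.1 ± 1.28 to 41.3 ± 2.20 CPM, a log2 change of -0.39 ± 0.07 (adjusted p = 0.000135). *Eif2b1* and *Eif2b4*, of the regulatory core, fell by 0.26 and 0.27 on the log2 scale, and the groups overlapped for *Eif2b4*. *Eif2b1* lost its call at equal depth or without hNK replicate 2 or teNK replicate 1, 2 or 3 (adjusted p up to 0.0743), and *Eif2b4* lost its call in DESeq2, at equal depth or without hNK replicate 1 or 3 or teNK replicate 2, 3 or 4 (adjusted p up to 0.0935). *Eif2b2* was not called (log2 fold change -0.15 ± 0.09, adjusted p = 0.179).

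The factors that select the start codon moved in both directions. *Eif1* (ENSMUSG00000035530, chromosome 11, 100319885 to 100322096), which guards against wrong start codons, was at 251, 275, 257 and 227 CPM in hNK and at 388, 320.6, 356 and 362 CPM in teNK. All 4 teNK libraries were above all 4 hNK libraries, a log2 change of 0.49 ± 0.07 (adjusted p = 2.95e-05). *Eif5*, the GTPase-activating protein of eIF2, was at 344, 391, 390.04 and 357 CPM in hNK and at 465, 416, 412 and 415 CPM in teNK. *Eif5* was thus higher in every teNK library too, by 0.21 ± 0.07 on the log2 scale (adjusted p = 0.0174). *Eif5b*, the GTPase that joins the large subunit, rose from 198 ± 12.6 to 223 ± 4.07 CPM, a log2 change of 0.17 ± 0.06 (adjusted p = 0.0240). The calls of *Eif5* and *Eif5b* were lost without teNK replicate 1 (adjusted p = 0.0707 for *Eif5*), and that of *Eif5b* also without hNK replicate 1 or 2 or with upper-quartile scaling (adjusted p up to 0.0616).

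Both genes of eIF1A, which works beside eIF1 in scanning, fell. *Eif1ax* (chromosome X, 159372178 to 159389928) was at 69.2, 86.6, 87.9 and 78.95 CPM in hNK and at 58.1, 52.6, 52.8 and 53.5 CPM in teNK, a log2 change of -0.57 ± 0.08 (adjusted p = 1.35e-05). *Eif1a*, its autosomal copy in the mouse, fell from 88.1 ± 10.9 to 64.1 ± 3.08 CPM, a log2 change of -0.45 ± 0.08 (adjusted p = 0.000210). *Eif1b*, a close paralog of *Eif1*, was at 29.6 ± 1.22 CPM in hNK and 30.04 ± 4.13 in teNK and was not called (adjusted p = 0.875). Thus *Eif1* rose while the genes of its partner eIF1A fell.

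**Figure D3:**
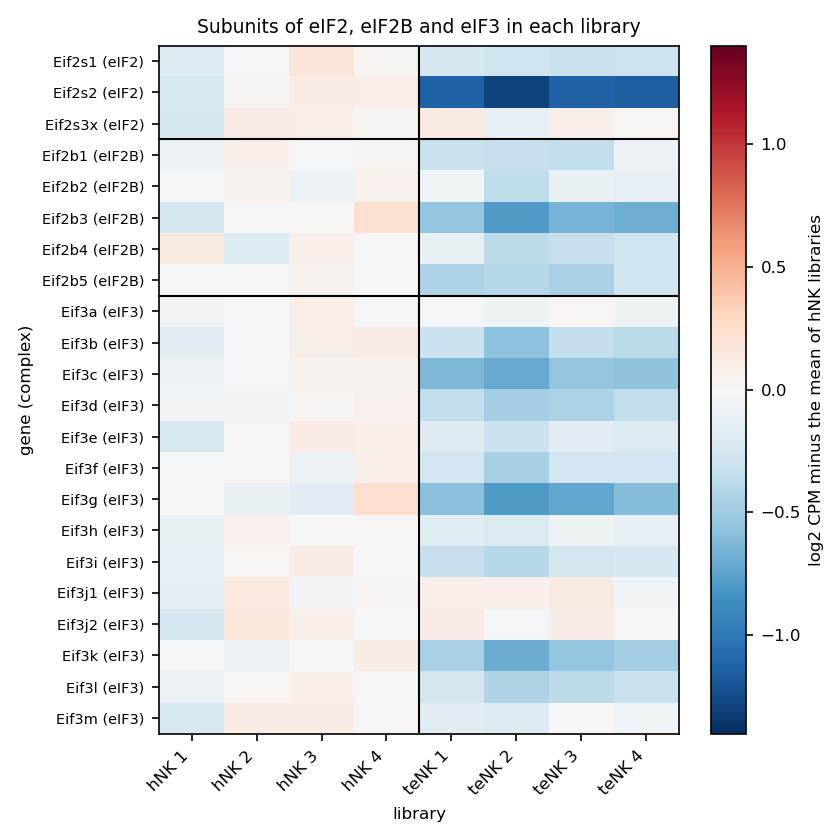
Level of each subunit gene of eIF2, eIF2B and eIF3 in the 8 libraries, as log2 CPM minus the mean log2 CPM of the 4 hNK libraries. Each row is a gene and each column a library; blue is lower and red higher than the hNK mean. *Eif2s2* is dark blue and *Eif3g* and *Eif3c* mid blue in all 4 teNK columns, while *Eif2s3x*, *Eif3a* and *Eif3j1* are pale.

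eIF3 is the largest initiation factor, and 9 of its 14 genes fell, none rose and 5 were not called. The share lower was 64.3%, beside 25.6% of all tested genes, and the median log2 fold change was -0.31. *Eif3c*, a core scaffold subunit and the highest of the eIF3 genes per kilobase in hNK (ENSMUSG00000030738, chromosome 7, 126546455 to 126566411), was at 530.5, 554, 582 and 583 CPM in hNK and at 364, 345, 384 and 379 CPM in teNK. *Eif3g*, an RNA-binding subunit (ENSMUSG00000070319, chromosome 9, 20894349 to 20898623), was at 63.6, 58.7, 57.1 and 73.9 CPM in hNK and at 41.9, 36.3, 38.0 and 41.3 CPM in teNK. The groups were separate for both. The log2 fold changes were -0.61 ± 0.06 for *Eif3c* (adjusted p = 5.56e-07) and -0.68 ± 0.08 for *Eif3g* (adjusted p = 4.38e-06). *Eif3k* (-0.54), *Eif3d* (-0.40), which can bind the cap of some mRNAs, *Eif3b* (-0.39), *Eif3l* (-0.34), *Eif3f* (-0.31), *Eif3i* (-0.30) and *Eif3e* (-0.21) made up the rest of the lower eIF3 genes by log2 fold change. The groups overlapped for *Eif3e*, and its call was lost without hNK replicate 2, 3 or 4 or teNK replicate 2 or 4 (adjusted p up to 0.0826).

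The 5 eIF3 genes not called included the largest subunit. *Eif3a*, the other core scaffold, was at 577 ± 25.5 CPM in hNK and 563 ± 18.9 in teNK (log2 fold change -0.04 ± 0.06, adjusted p = 0.656). For *Eif3h* the log2 change was -0.14 (adjusted p = 0.0670), and for *Eif3m* it was -0.10 (adjusted p = 0.278). *Eif3j1* was at 56.1 ± 4.62 and 58.2 ± 2.88 CPM and its near copy *Eif3j2*, on chromosome 18, at 16.4 ± 1.86 and 16.9 ± 0.839 CPM, so the loosely bound subunit eIF3j showed no call in either gene. Per kilobase, *Eif3c* over *Eif3a* was 2.36 to 2.55 in hNK and 1.57 to 1.72 in teNK. *Eif3g* over *Eif3a* was 0.410 to 0.574 in hNK and 0.285 to 0.331 in teNK. As for eIF2, these ratios were picked after the values had been seen and are given without a test.

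The cap-binding complex and its helpers also held calls of both directions: 2 of 11 tested genes rose, 3 fell and 6 were not called. These shares, 18.2% higher and 27.3% lower, were no more than near the background of 26.4% and 25.6% of all tested genes. *Eif4g3* (ENSMUSG00000028760, chromosome 4, 137993022 to 138208508), a scaffold paralog of *Eif4g1*, was at 216, 178, 215 and 200.4 CPM in hNK and at 271, 306, 291 and 277 CPM in teNK. *Eif4a2* (ENSMUSG00000022884, chromosome 16, 23107444 to 23114136), a helicase paralog of *Eif4a1*, was at 357, 379, 398 and 377 CPM in hNK and at 494, 481, 479.7 and 459 CPM in teNK. Both genes were higher in every teNK library than in any hNK library. The log2 fold changes were 0.50 ± 0.07 for *Eif4g3* (adjusted p = 1.88e-05) and 0.34 ± 0.06 for *Eif4a2* (adjusted p = 0.000175). *Eif4g1*, at 366 ± 18.6 and 347 ± 17.8 CPM, and *Eif4a1*, at 279 ± 32.2 and 265 ± 14.3 CPM, were not called (adjusted p = 0.340 and 0.477).

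*Eif4b* and *Eif4h*, whose products stimulate the helicase, fell by 0.39 and 0.19 on the log2 scale. *Eif4b* was at 435 ± 26.8 CPM in hNK and 332 ± 16.2 in teNK (adjusted p = 0.000109). *Eif4e*, the cap-binding protein itself, fell from 78.1 ± 8.40 to 66.9 ± 4.01 CPM (log2 fold change -0.22 ± 0.08, adjusted p = 0.0300). The groups overlapped for *Eif4e*. Its call was lost at equal depth or without hNK replicate 2, 3 or 4 or teNK replicate 1, 2 or 3 (adjusted p up to 0.0934). *Eif4g2*, a scaffold that lacks the eIF4E site and the highest of the group per kilobase, was at 1326 ± 137 CPM in hNK and 1504 ± 59.9 in teNK and was not called (log2 fold change 0.18 ± 0.08, adjusted p = 0.0683). The other cap-binding homologs *Eif4e2* (110.1 ± 4.47 and 119.7 ± 2.01 CPM) and *Eif4e3* (21.6 ± 1.19 and 24.0 ± 1.07 CPM), and *Eif4enif1*, which carries eIF4E into the nucleus, were not called.

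Several factors have a paralog with a related role, and the ratio of both within a library does not depend on library scaling. Of 9 pairs, 8 had enough reads, and the log2 ratio was compared by a two-sided exact permutation test whose smallest p for 4 against 4 libraries is 0.0286. For *Eif4a1* over *Eif4a2*, the ratio per kilobase was 0.827 to 1.04 in hNK and 0.649 to 0.733 in teNK, a difference in log2 ratio of -0.41. For *Eif4g1* over *Eif4g3* it was 2.53 to 2.93 and 1.68 to 1.95, a difference of -0.58. Per kilobase, the helicase pair was thus near parity in hNK, and *Eif4a2* was the higher in teNK. That order depends on the exon lengths used. In CPM, *Eif4a2* was the higher in hNK too, at 357 to 398 against 240 to 318 for *Eif4a1*. The ratio of *Eif5a* over *Eif5a2* was 15.1 to 26.2 in hNK and 12.4 to 13.9 in teNK (difference -0.53), and that of *Eif1* over *Eif1b* 4.00 to 4.82 and 5.68 to 7.04 (difference 0.49).

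In each of these 4 pairs the groups did not overlap and the exact p was 0.0286, the smallest possible, but after adjustment over the 8 pairs it was 0.0571 and missed the threshold. For *Eif4e* over *Eif4e2* and *Eif4e* over *Eif4e3* the log2 ratio differed by -0.34 and -0.37 (exact permutation p = 0.0571, adjusted 0.0762 for each), with overlapping groups. For *Eif1a* over *Eif1ax* the difference was 0.12 (adjusted exact p = 0.196), and for *Eif3j1* over *Eif3j2* 0.01 (adjusted exact p = 0.914).

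**Figure D4:**
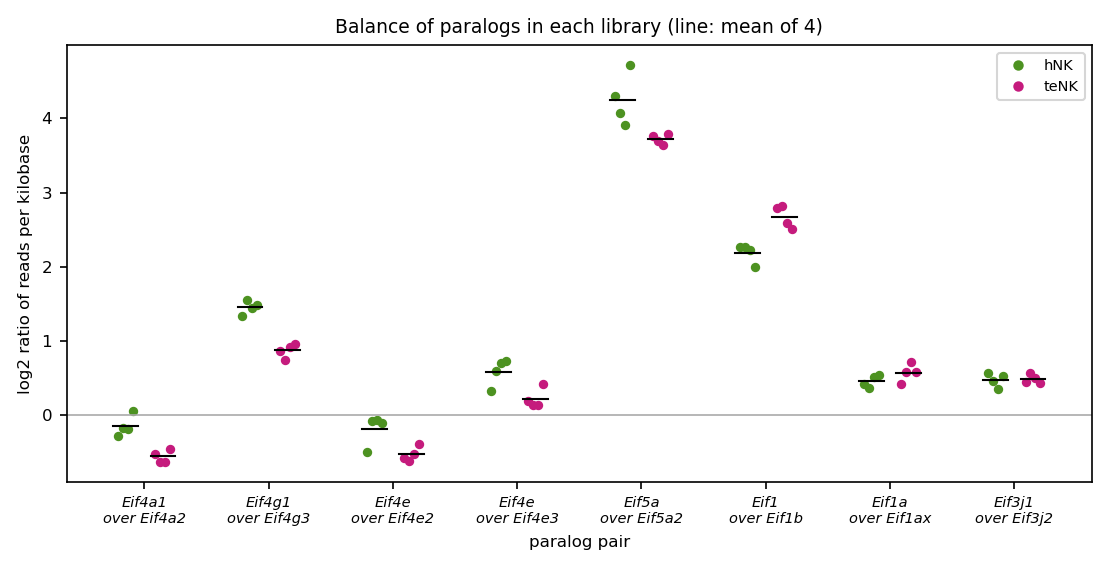
Log2 ratio of the paralogs of 8 pairs in each library, per kilobase of exon. Points are libraries (green hNK, magenta teNK), and black lines are group means (n = 4). The groups are apart for *Eif4a1* over *Eif4a2*, *Eif4g1* over *Eif4g3*, *Eif5a* over *Eif5a2* and *Eif1* over *Eif1b*, and overlap for the other 4 pairs.

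The remaining genes sit outside the main complexes. *Eif1ad*, a small protein with an eIF1A-like domain (ENSMUSG00000024841, chromosome 19, 5366741 to 5371526), was at 40.4, 49.3, 36.6 and 50.6 CPM in hNK and at 24.6, 23.7, 24.4 and 26.1 CPM in teNK. The groups were well apart, with a log2 fold change of -0.84 ± 0.10 (adjusted p = 1.94e-06). *Eif1ad* overlaps *Banf1* on the genome. *Eif6*, which keeps the large subunit from joining too early, was at 48.3 ± 5.72 and 43.3 ± 4.78 CPM and was not called (adjusted p = 0.135). *Eif2a* and *Eif2d*, which can deliver tRNA without eIF2, and *Eif4a3*, the helicase of the exon junction complex, were not called, with log2 fold changes of 0.02, -0.04 and -0.07.

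Some of these genes share sequence with copies or share their span with other genes. Of the 56 tested, 32 overlapped at least 1 other annotated gene, 15 of them a protein-coding gene, and several (*Eef2*, *Eif4a1*, *Eif4a2* and *Eef1b2* among them) hold small nucleolar RNAs. The line for reads with several alignments held 0 in every file, so values of genes with near copies are uncertain. *Eef1a1*, *Eif4a1*, *Eif3e*, *Eif1*, *Eif5a*, *Eif2s3x*, *Eif3j1* and *Eif3j2* are among them. The pseudogene *Eif4a-ps4* had 67.7 CPM in hNK and 52.4 in teNK and was itself called lower (adjusted p = 0.00354).

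The promoters of the translation factors were searched for CACGTG, the E-box bound by MYC, USF and TFE family factors, in the 250 bases before each RefSeq start (GRCm38.p6), a motif chosen after the values had been seen. It reads the same on both strands. A promoter was found for 46 of the 60 genes, and 12 of the 46 (26.1%) held the motif before at least 1 start. Among all genes of the promoter file, 6.86% held it, and 10% of the tested genes did. Of the 12 genes, 6 were called lower, 0 higher, 5 were not called and 1 was not tested. Of all 46 genes with a promoter, 23 were called lower, 5 higher and 16 were not called, so the share called lower was the same. The median log2 fold change was -0.19 with the motif and -0.26 without it. Windows of 60 bases around it are shown for 3 genes that were lower and 3 that were not called, on the gene's strand from 5′ to 3′ with each match in capitals (a pair of them in *Eif5a2*), so that the like motif can be seen in genes of both kinds. They are *Eef2* at chr10:81176561-81176620 (plus), *Eif3f* at chr7:108934320-108934379 (plus) and *Eif3k* at chr7:28981900-28981959 (minus), all lower, then *Eif4a1* at chr11:69672580-69672639 (minus), *Eif5a2* at chr3:28781108-28781167 (plus) and *Eef2k* at chr7:120842771-120842830 (plus), not called.
Eef2: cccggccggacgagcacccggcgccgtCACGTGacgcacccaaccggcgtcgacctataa
Eif3f: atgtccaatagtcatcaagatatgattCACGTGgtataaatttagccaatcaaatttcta
Eif3k: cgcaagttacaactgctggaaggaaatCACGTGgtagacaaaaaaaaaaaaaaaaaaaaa
Eif4a1: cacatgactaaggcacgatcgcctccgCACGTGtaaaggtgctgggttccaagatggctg
Eif5a2: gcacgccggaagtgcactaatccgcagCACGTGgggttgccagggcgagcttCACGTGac
Eef2k: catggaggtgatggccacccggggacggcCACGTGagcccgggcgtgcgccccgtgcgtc

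The motif TGATGNAA, part of the element bound by ATF4 and CHOP, was searched on both strands of the same windows. It was found for 2 of the 46 genes (4.35%), *Eef2k* and *Eif2s3x*, neither of which was called, and for 2.38% of tested genes. A match in these windows is a description of the letters and says nothing of binding.

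The genes that regulate or complete these steps were counted from lists made by role. Of 56 partner genes, 55 were tested, 11 rose (20%) and 21 fell (38.2%), beside 26.4% and 25.6% of all tested genes. Among 18 regulators, 6 rose and 6 fell (33.3% each), shares not far from that background, and they held the largest changes of the pathway. *Eif4ebp1*, the repressor that holds eIF4E until mTOR phosphorylates it, was at 26.0, 29.4, 33.8 and 37.9 CPM in hNK and at 4.67, 5.78, 5.14 and 4.66 CPM in teNK. It was lower in every teNK library, 6.16-fold (log2 fold change -2.62 ± 0.13, adjusted p = 8.46e-11). Its paralogs *Eif4ebp2* (203 and 199.9 CPM) and *Eif4ebp3* (1.39 and 1.27 CPM) were not called.

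*Ppp1r15a*, the stress-induced subunit that targets a phosphatase to eIF2 alpha, was at 32.7, 31.8, 31.3 and 29.3 CPM in hNK and at 181, 144, 155 and 135 CPM in teNK. *Pdcd4*, an inhibitor of the helicase eIF4A, rose from 238 ± 16.7 to 541 ± 28.4 CPM. Both were higher in every teNK library, with log2 fold changes of 2.29 ± 0.09 and 1.18 ± 0.07 (adjusted p = 3.61e-12 and 4.27e-10). *Larp1*, which binds and restrains mRNAs of the translation machinery, fell from 237 ± 22.4 to 154 ± 4.29 CPM (log2 fold change -0.61, adjusted p = 1.43e-06). *Paip2b*, an inhibitor of the poly(A)-binding protein, fell by 0.35 on the log2 scale, and *Mknk1*, a kinase of eIF4E, rose by 0.32 with overlapping groups.

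The other 6 regulators called had smaller or less steady changes. *Mknk2*, *Paip2* and *Gigyf2*, a partner of eIF4E2 in repression, had log2 fold changes of 0.16, 0.19 and 0.15. *Ppp1r15b*, the constitutive counterpart of *Ppp1r15a*, *Impact*, an inhibitor of GCN2 activation, and *Eif2ak2* (PKR) had values of -0.17, -0.21 and -0.43. Each of these 6 lost its call without some single libraries (adjusted p up to 0.161 over the alternatives): *Paip2* without hNK replicate 1 or teNK replicate 3 or 4, *Mknk2* without hNK replicate 3 or 4 or teNK replicate 1, 3 or 4, and *Gigyf2* without hNK replicate 2, 3 or 4 or teNK replicate 1, 2 or 3. The same held for *Eif2ak2* without hNK replicate 1 or 4 or teNK replicate 1, 2 or 3, for *Impact* without hNK replicate 1, 2 or 4 or teNK replicate 2, 3 or 4, and for *Ppp1r15b* without hNK replicate 2, 3 or 4 or any teNK replicate. Of the other eIF2 kinases, *Eif2ak1*, *Eif2ak3* (PERK) and *Eif2ak4* (GCN2) were not called, and neither was the GCN2 activator *Gcn1l1*.

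**Figure D5:**
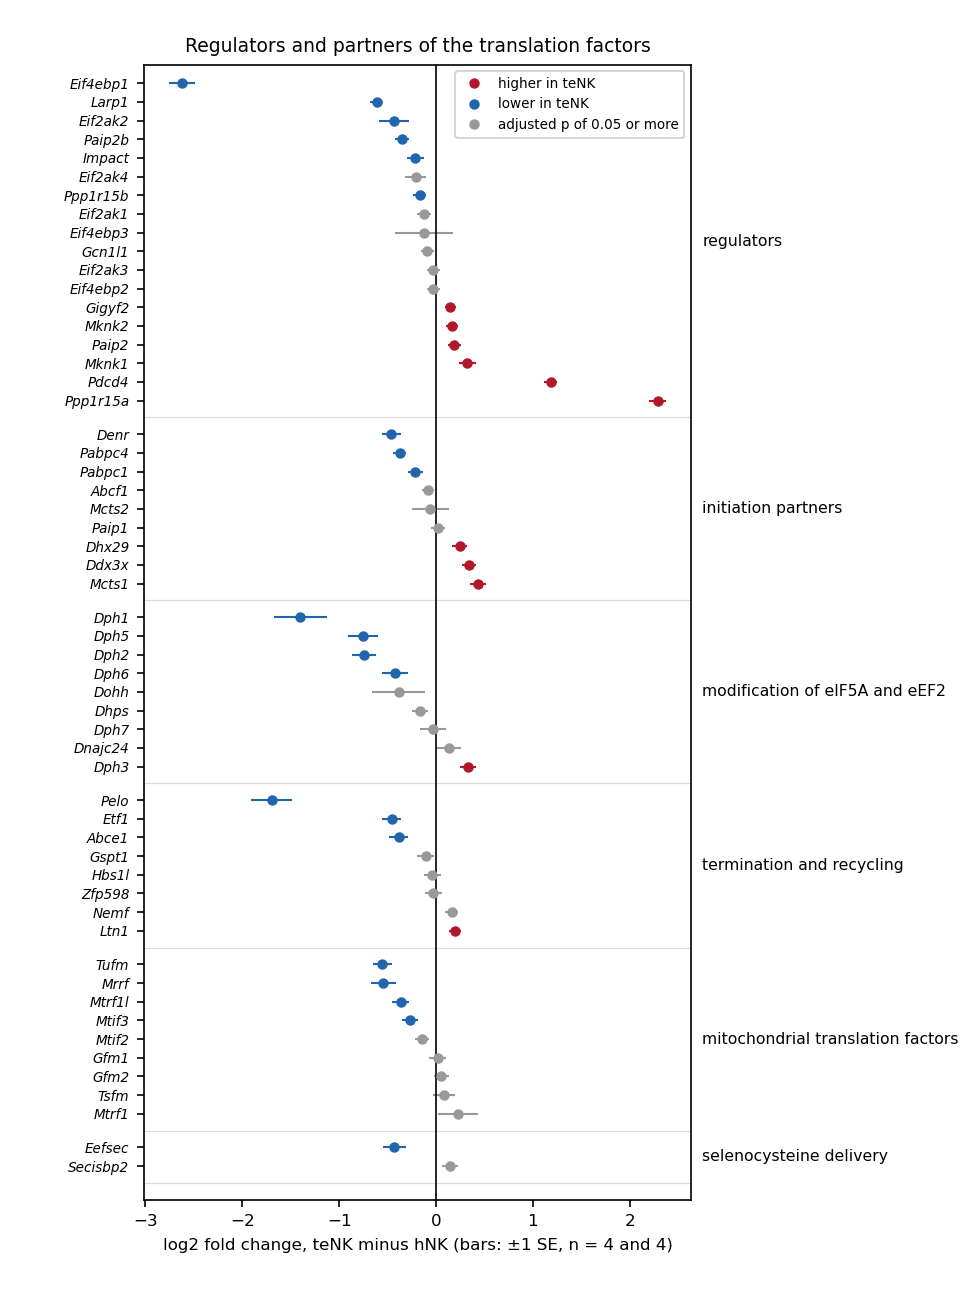
Log2 fold change of the 55 tested partner genes, teNK minus hNK, by list, with bars of 1 standard error (4 libraries in each group). Blue genes were called lower, red higher and grey were not called. *Eif4ebp1* at -2.62 and *Ppp1r15a* at 2.29 lie farthest from 0, both among the regulators.

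Of 9 initiation partners, 3 rose and 3 fell, the same shares as for the regulators. The helicase gene *Ddx3x* and the recycling factor gene *Mcts1* rose by 0.34 and 0.44 on the log2 scale, while *Denr*, whose product works as a dimer with MCTS1, fell by 0.46 and *Pabpc4*, a poly(A)-binding protein, by 0.37. *Mcts1* went from 30.5 ± 3.16 to 41.0 ± 1.14 CPM and *Denr* from 42.0 ± 5.51 to 30.4 ± 2.71 CPM. The genes of this dimer thus moved in opposite directions, with adjusted p of 0.00033 and 0.00102. *Dhx29*, a helicase gene, rose by 0.24 and *Pabpc1* fell by 0.21 on the log2 scale, but *Dhx29* lost its call without hNK replicate 2 (adjusted p = 0.0698) and *Pabpc1* without hNK replicate 2 or 3 or teNK replicate 1, 2 or 4 (adjusted p up to 0.0976). Of 9 genes that modify eIF5A and eEF2, 1 rose (11.1%), 4 fell (44.4%) and 4 were not called. The share called, 55.6%, was near the 51.9% of all tested genes. *Dohh* and *Dhps* of hypusine synthesis were not called, and 4 genes of diphthamide synthesis on eEF2 fell: *Dph1* (-1.398 in log2 fold change), *Dph2* (-0.74), *Dph5* (-0.75) and *Dph6* (-0.42). The level of *Dph1* was low, at 4.98 ± 1.26 CPM in hNK and 1.80 ± 0.769 in teNK, and the groups overlapped for *Dph6*. *Dph3*, also of diphthamide synthesis, rose by 0.33, and *Dph7* (-0.03) and *Dnajc24* (0.13 in log2 fold change) of the same pathway were not called.

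In termination and recycling, 3 of 8 tested genes fell (37.5%) and 1 rose (12.5%), 50% in all beside 51.9% of all tested genes. *Pelo*, which rescues stalled ribosomes, fell from 5.01 ± 0.343 to 1.52 ± 0.345 CPM (log2 fold change -1.70 ± 0.21, adjusted p = 4.54e-06). *Etf1*, the release factor eRF1, fell by 0.46 and *Abce1*, which splits the ribosome, by 0.38 on the log2 scale. *Ltn1*, a ligase of stalled nascent chains, rose by 0.20. The groups overlapped for *Abce1* and *Ltn1*. Of the 9 mitochondrial translation factors 4 fell (44.4%) and none rose, beside 25.6% lower and 26.4% higher among all tested genes. Their share called in either direction was below the 51.9% of all tested genes. *Tufm*, the mitochondrial counterpart of eEF1A, fell from 35.04 ± 2.57 to 23.9 ± 3.11 CPM, and *Mrrf*, *Mtrf1l* and *Mtif3* fell too. *Mtrf1l* and *Mtif3* lost their calls at equal depth (adjusted p = 0.0641 and 0.0763). *Eefsec*, the selenocysteine elongation factor, fell by 0.43 on the log2 scale and *Secisbp2* was not called.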

How the data were processed

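Per the labels' protocols, RNA of NK cells was extracted with RNeasy and a stranded mRNA kit was used for the libraries. The authors deposited unnormalized read counts per Ensembl gene for each of the 8 libraries. Per the submitters' processing notes, HISAT2 2.1.0, SAMtools, HTSeq and the build GRCm38 were used. Strand setting and annotation release are not given in the sources used here. Reads in no gene made up 32.3% to 41.2% of each file and ambiguous reads 1.52% to 2.07%, and these lines stayed out of library sizes and tests. GENCODE M21 gave symbols, biotypes and exon lengths for 54809 identifiers.

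In R 4.3.3, edgeR 4.0.16 kept 13903 of 27313 genes with a read (filterByExpr by group), scaled them with TMM and tested the group term with the quasi-likelihood F test. Benjamini-Hochberg adjustment ran over these genes, and an adjusted p under 0.05 was a call. Standard errors are the log2 fold change over the square root of F. CPM used TMM-scaled library sizes, and means and SDs are over 4 libraries. Paralog ratios had 0.5 reads added to each count. No libraries of a group agreed within sampling noise (chi-square of 3.51 to 11.3 per degree of freedom), so all 8 were counted. Full values were given, in each complex, to the 2 called genes with the largest change, the highest gene per kilobase and the paralogs, and, of partners, to at most 4 called genes per list and the regulators. 1 marker of the erythroid list is not reported here. Members and lists were chosen with earlier results of these data known. Tested on simulated data (13903 genes, 50 changed at each size), the fit recovered 42% of genes changed 1.25-fold, 96% at 1.5-fold and 100% at 2-fold and 4-fold. There were 13 false calls among 182. The simulation gave all genes the same dispersion and changed only genes well above the floor. Far fewer genes were changed in it than the 7222 called in the data, so these rates do not carry over to this comparison. The alternatives were other scaling (DESeq2 size factors, upper quartile, TMM without these genes and ribosomal protein genes), DESeq2 1.42.0, no filter, a filter of 50 reads in 4 libraries, equal depth, a replicate block and leaving out each library.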

Additional observations from a re-analysis of the deposited data

Results flagged for a closer look

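In 238 groups of 4 libraries (56 translation factors, 55 partner genes and 8 paralog ratios, in hNK and teNK), 15 had a library whose gap to the nearest other exceeded Dixon's 95% limit for 4 values. Chance flags about 1 group in 20. Among elongation factors, *Eef1a1* was at 6313 CPM in hNK replicate 1 against 7319 to 7384 in the other hNK libraries, and at 4398 in teNK replicate 2 against 5095 to 5202. In the same teNK replicate 2, *Eef1e1* was at 12.9 CPM (14.9 to 15.2 in the others), *Eif2s2* at 82.1 (90.6 to 92.2) and *Eif3f* at 178 (203 to 204). *Eef1akmt1* was at 12.5 CPM in hNK replicate 4 against 7.90 to 8.50.

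In teNK replicate 1, *Eif1ax* was at 58.1 CPM (52.6 to 53.5 in the others), *Eif5* at 465 (412 to 416) and the helicase gene *Ddx3x* at 689.8 (602 to 607). *Eif2b1* was at 23.8 CPM in teNK replicate 4 against 19.9 to 20.3, and *Mcts1* at 25.9 in hNK replicate 1 against 31.7 to 32.8. In teNK replicate 3, *Pdcd4* was at 584 CPM (525 to 531 in the others) and *Gspt1* at 180.1 (165 to 167). The log2 ratio of *Eif4e* over *Eif4e2* was -0.50 in hNK replicate 1 against -0.11 to -0.05, and that of *Eif1* over *Eif1b* was 2.00 in hNK replicate 4 against 2.23 to 2.27.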

How the results depend on the processing

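Of the 35 translation factors called, 28 (25 lower, 3 higher) were called in all 16 alternatives, and no called gene changed sign in any. *Eef2kmt*, *Eif2b1*, *Eif2b4*, *Eif3e*, *Eif4e*, *Eif5* and *Eif5b* lost their call in at least 1, and 16 of the 21 genes not called were called in none. Of the others, *Eif3h*, *Eif3m*, *Eif4e2*, *Eif4g2* and *Eif6* passed in at least 1. The median log2 fold change was -0.25 with upper-quartile scaling, which moved the median of all genes to -0.06, and -0.27 to -0.18 without single libraries, lowest without hNK replicate 1. Leaving out single libraries gave 3 to 6 genes higher, 3 without teNK replicate 1, and 26 to 31 lower. Numbers shared by hNK and teNK libraries did not pair them (correlations of same-numbered deviations from -0.11 to 0.15), and the replicate block gave 5 higher and 30 lower, with all 35 calls shared. Among partner genes, the block ended the calls of *Gigyf2*, *Mknk2*, *Pabpc1* and *Ppp1r15b*. With 3 libraries in a group the paralog test cannot give a p under 0.0571. At equal depth, with every library thinned to the smallest, *Eif2b1*, *Eif2b4* and *Eif4e* lost their calls, and 27 genes were lower and 5 higher.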

Other observations

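Pseudogenes of the translation factors were listed apart from the 60 genes. *Eif3s6-ps2*, a copy of *Eif3e*, was at 6.37 CPM in hNK and 4.25 in teNK and was called lower (edgeR adjusted p = 0.0144). *Eif5al3-ps*, a copy of an *Eif5a* gene, was at 1.16 and 0.650 CPM and was called lower (adjusted p = 0.0331). *Eif3s6-ps1*, *Eif1-ps1* and *Eif1-ps2* were tested and not called.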
